A study of Mus musculus with 2 samples.

Results

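Axon guidance ligands and their receptors were read out in the newborn mouse heart: semaphorins and plexins, ephrins and Eph receptors, Slits and Robos, and netrins and Unc5 receptors. The genes were taken by symbol alone (Sema, Efna, Efnb, Epha, Ephb, Slit, Robo or Ntn followed by a number, Plxn, and Unc5a to Unc5d), with antisense genes left out. This gave 65 genes of 42462 with a matched symbol, namely 20 semaphorins, 9 plexins, 5 ephrin-A, 3 ephrin-B, 9 EphA, 5 EphB, 3 Slit, 4 Robo, 3 netrin (Ntn1, Ntn4 and Ntn5) and 4 Unc5 genes. The study had 1 group, whole hearts of B6NCrl mice at postnatal day 0 (n = 2), with no treatment or altered allele named. Replicate 1 was the heart of pup 2 and replicate 2 that of pup 3, littermates of pregnancy 1 whose sex was not recorded and who carry the same donor identifier. Total RNA above 200 bases, 10 ng per library, was sequenced to 46151722 and 44707283 expected counts, which are estimated reads per gene.

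Guidance molecules were named for steering growing axons, and most of the same proteins also act between cells of the heart and its vessels. Ephrins and Eph receptor kinases are both held at the cell surface and signal in both directions on contact, whereas Slits, netrins and class 3 semaphorins are secreted. In the heart these systems are known for separating arteries from veins, dividing the outflow tract, shaping valves and trabeculae and directing sympathetic nerves.

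All levels are in TPM, the deposited transcript abundances, which are scaled per length and can be set side by side between genes. With 2 pups of 1 group, an exact sign-flip test cannot go below p = 0.5, so the comparisons are descriptions, given with both pups' values or as mean ± SD (n = 2). In RNA of a whole organ, fewer cells of a type and less RNA per cell cannot be told apart. The defining markers of heart tissue were present: 6 heart muscle markers summed to 16493 and 14879 TPM and 8 endothelial markers to 391 and 377 TPM, with all of them detected. The 7 fibroblast markers summed to 1189 and 1270 TPM and the 7 smooth muscle and pericyte markers to 1218 and 973 TPM. Most of the latter sum was Acta2 alone, at 1130 and 884 TPM, whereas Myh11 was at 2.44 and 2.25 TPM. Of these 7, only Tagln was higher in replicate 2, at 32.3 and 38.2 TPM. Of 10 neuron and Schwann cell markers only 2 were detected, and they summed to 6.28 and 9.77 TPM. The 8 lung epithelial markers summed to 32.6 and 641.9 TPM and the 5 matched erythroid markers to 6036 and 3916 TPM. The sums were 28.0 and 29.9 TPM for endocardial, 99.7 and 108 TPM for epicardial, 34.2 and 37.8 TPM for macrophage, 37.5 and 38.0 TPM for lymphatic endothelial and 1.25 and 1.5 TPM for thymus and lymphocyte markers. The part of these cell types in the values that follow was not tested.

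The promoters of 4 members are shown because these are related genes of unlike level that each hold many CG dinucleotides, and that of Robo4 is shown because it lacks the common feature. They are 150 bases each, from 230 to 81 bases before the start given by RefSeq (GRCm38.p6), read 5′ to 3′ on the gene's strand, with each CG dinucleotide in capitals. Efna1 and Efna3 are ephrin-A genes side by side on chromosome 3, and Ephb4 and Ephb2 are receptors of the same class. Robo4 is the Robo receptor of endothelial cells.
Efna1 (chr3:89279726-89279875, minus strand, 28.7 TPM): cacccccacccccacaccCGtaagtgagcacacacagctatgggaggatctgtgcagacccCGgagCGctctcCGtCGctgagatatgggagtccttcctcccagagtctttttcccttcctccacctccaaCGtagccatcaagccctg
Efna3 (chr3:89323020-89323169, minus strand, 0.21 TPM): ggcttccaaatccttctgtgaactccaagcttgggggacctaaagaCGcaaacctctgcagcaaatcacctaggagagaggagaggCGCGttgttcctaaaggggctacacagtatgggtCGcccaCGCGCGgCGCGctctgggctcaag
Ephb4 (chr5:137349879-137350028, plus strand, 16.5 TPM): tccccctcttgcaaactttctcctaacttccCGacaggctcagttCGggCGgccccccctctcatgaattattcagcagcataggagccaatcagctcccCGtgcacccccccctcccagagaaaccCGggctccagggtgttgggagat
Ephb2 (chr4:136836093-136836242, minus strand, 0.155 TPM): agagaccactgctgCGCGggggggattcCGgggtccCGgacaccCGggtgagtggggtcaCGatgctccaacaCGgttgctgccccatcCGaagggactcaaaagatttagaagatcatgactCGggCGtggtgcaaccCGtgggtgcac
Robo4 (chr9:37401742-37401891, plus strand, 6.26 TPM): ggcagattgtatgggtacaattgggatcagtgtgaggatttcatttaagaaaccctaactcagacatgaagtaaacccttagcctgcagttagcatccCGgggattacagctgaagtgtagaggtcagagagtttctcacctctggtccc

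Over the full 250 bases before the start, Efna1 held 18 CG dinucleotides and the far lower Efna3 19. Ephb4 held 12 and Ephb2 20, while Robo4 held 2. Of 56 members with an entry in the promoter table, 41 (73.2%) held 10 or more CG dinucleotides, compared with 37.8% of all 32851 promoters in it. The share was 25 of 32 for members detected in both pups and 16 of 24 for those that were not, so CG-rich promoters were common in both sets. The letters TATAAA, searched on both strands in the same 250 bases, were found in 2 of the 56 (Efnb2 and Slit2), or 3.57%, and in 12.4% of all promoters. The promoter used was the entry closest to the most abundant coding transcript, and it lay within 100 bases of that start for 43 of the 56. For members only this entry was counted, whereas the shares over all promoters took every entry, with no selection by gene type or level. The sets are therefore unlike, and whether the members are unusual in these features was not tested.

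At 1 TPM or more in both pups, 39 of the 65 genes were detected (60%), near the 54.5% of all 21474 protein-coding genes. By role, 22 of 34 ligand genes and 17 of 31 receptor genes were detected. The detected members had a median of 4.225 TPM, below the 11.995 TPM of all detected coding genes, and 7 members reached 10 TPM on average: Efnb3, Plxnb2, Efna1, Ntn1, Ephb4, Efna5 and Plxnd1. All members together came to 314.9 ± 6.14 TPM, of which ligands made up 198.3 ± 4.14 and receptors 116.6 ± 1.99 TPM. The detected members were long genes, with a median span of 69.0 kb against 24.1 kb for all detected coding genes.

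**Figure D1:**
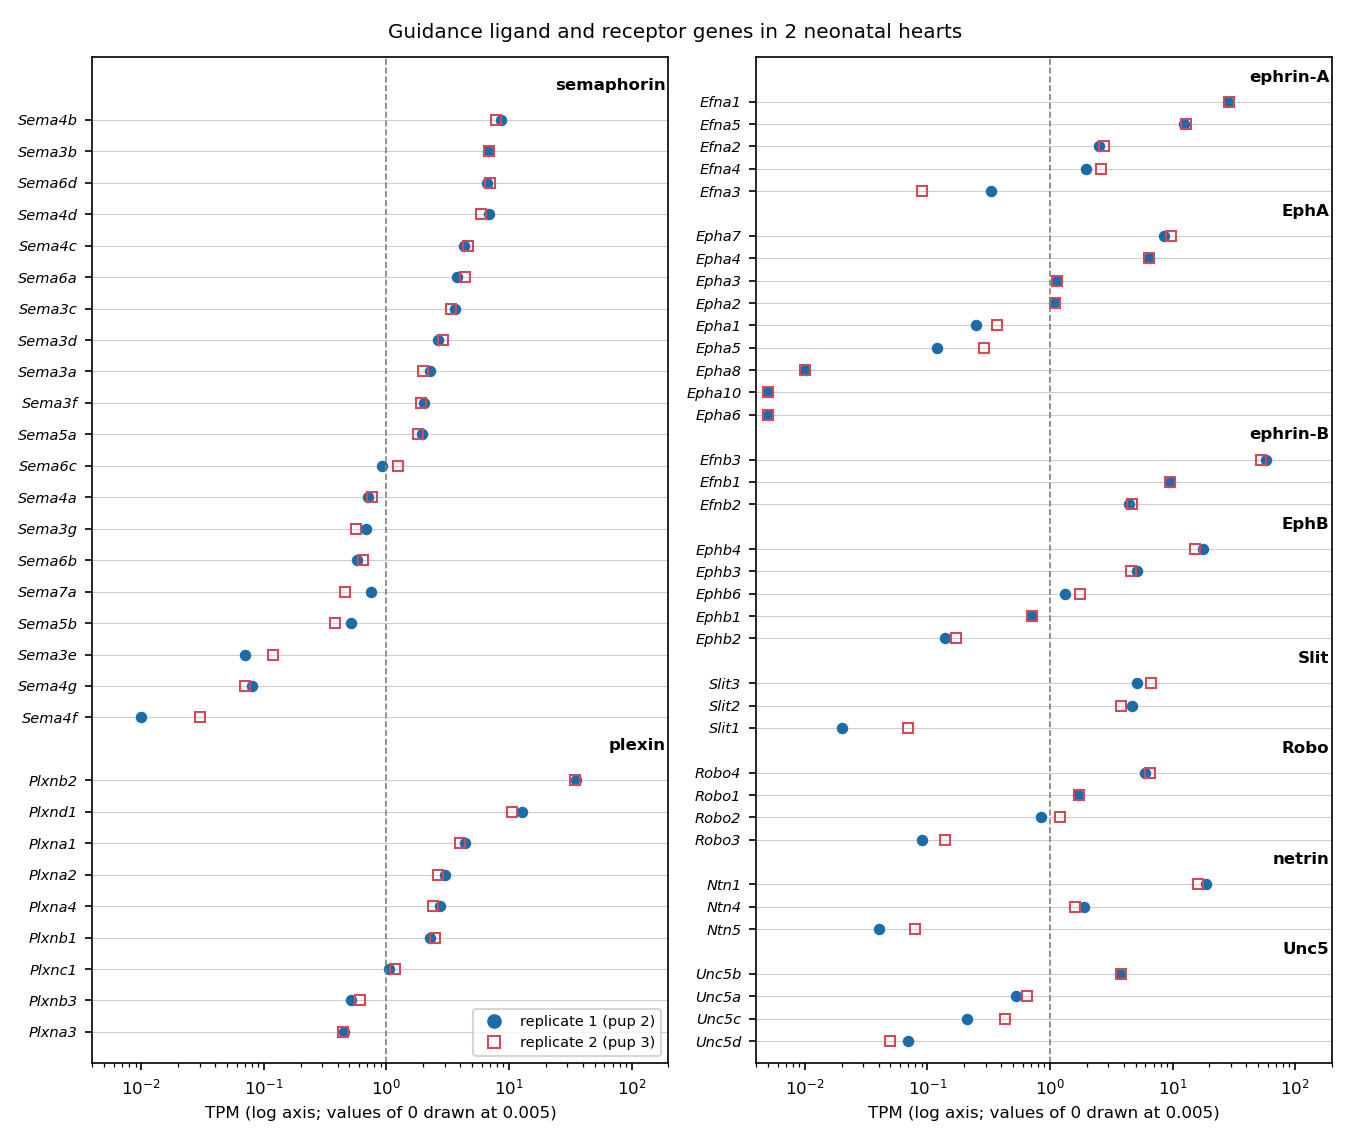
TPM of each of the 65 genes on a log axis, by family, with filled circles for replicate 1, open squares for replicate 2 and a dashed line at 1 TPM. Within most families 1 or 2 genes lie far to the right of the rest, from Efnb3 at 57.5 and 52.5 TPM down to Epha6 and Epha10 at 0.

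The ephrin-B ligands had the largest sum of any family, 69.1 ± 3.37 TPM, and 79.6% of it was a single gene. Efnb3, a transmembrane ephrin best known from the midline of the nervous system (chromosome 11, 69554092 to 69560205), had levels of 57.5 TPM (replicate 1) and 52.5 TPM (replicate 2). It was the most abundant member and exceeded 83.9% of detected coding genes. Its reads came from 1 annotated coding transcript, and no exon base was shared with another gene. Efnb1, the X-linked ephrin-B, was at 9.49 and 9.55 TPM, a level 0.173 times that of Efnb3. Efnb2, the ephrin that marks arterial endothelium, was at 4.45 and 4.70 TPM, 0.481 times Efnb1. The order Efnb3, Efnb1, Efnb2 held in both pups, with deposited credibility intervals that did not overlap.

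Among EphB receptors, 3 of 5 were detected and Ephb4 made up 69.4% of a summed 23.8 ± 1.58 TPM. Ephb4, the partner of Efnb2 on venous endothelium (chromosome 5, 137350109 to 137378669), was at 17.6 and 15.4 TPM. That was 3.61 times Efnb2, 3.40 times Ephb3 and 106 times Ephb2. Ephb3 was at 5.11 and 4.60 TPM and Ephb6, which has no active kinase, at 1.33 and 1.77 TPM. Ephb1 stayed below the threshold at 0.72 TPM in each pup, and Ephb2 was at 0.14 and 0.17 TPM from 32 and 36 counts. The posterior means of Ephb2 were higher, 0.27 and 0.32 TPM. The summed ephrin-B ligands exceeded the EphB receptors by 1.54 ± 0.03 on the log2 scale, or 2.91-fold. Without Efnb3 and Ephb4 the log2 ratio was 0.95.

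Ephrin-A ligands, which are anchored to the membrane by a lipid, summed to 46.4 ± 1.37 TPM with 4 of 5 detected. Efna1, first found as a gene induced in endothelial cells (chromosome 3, 89271733 to 89281142), was at 28.3 and 29.1 TPM and made up 61.8% of the sum. Efna5 (chromosome 17, 62604184 to 62881317) was at 12.3 and 12.8 TPM, so that Efna1 was 2.28 times as abundant. In expected counts, which are not divided by length, the order was the opposite, with 1490 and 1516 for Efna1 and 1845 and 1906 for Efna5. Efna2 (2.53 and 2.76 TPM) and Efna4 (1.97 and 2.61 TPM) were not separated from each other. Efna4 shared 10.5% of its exon bases with a gene on the other strand, and without strand information in the counts the reads of the pair cannot be told apart. Efna3, 32.756 kb from Efna1 and 10.424 kb from Efna4, was at only 0.33 and 0.09 TPM, so that 1 gene of low level lay between neighbours of higher level.

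Of the EphA receptors, 4 of 9 were detected, with a sum of 18.3 ± 1.04 TPM. Epha7 (chromosome 4, 28813131 to 28967499), an EphA receptor with known truncated forms, led at 8.49 and 9.67 TPM. Epha4, which binds ephrins of both classes (chromosome 1, 77367185 to 77515088), followed at 6.43 and 6.42 TPM. Together they made up 84.9% of the family. Epha7 was called higher than Epha4 over all transcripts, but the call was lost over coding transcripts. Epha3, known from the atrioventricular cushions, was at 1.14 and 1.15 TPM, and Epha2, a receptor of epithelial and vascular cells, at 1.09 TPM in each pup. The values of these receptors hardly differed between the pups, and Epha3 and Epha2 were not separated from each other. Epha1 was at 0.25 and 0.37 TPM, Epha5 at 0.12 and 0.29 TPM and Epha8 at 0.01 TPM with 1 and 2 counts. No read was assigned to Epha6 or to Epha10, whereas 3 counts would have been 0.0420 and 0.0425 TPM for Epha6 and 0.0310 and 0.0313 TPM for Epha10. The ephrin-A sum exceeded the EphA sum by 1.35 ± 0.04 on the log2 scale (2.54-fold). Over transcripts annotated as coding the log2 ratio was 2.13 ± 0.47, from 2.46 in replicate 1 and 1.80 in replicate 2, where the coding EphA sums were 8.19 and 13.6 TPM. In counts not divided by length it was 0.33.

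Semaphorins were spread more evenly than the ephrins: 11 of 20 were detected, they summed to 53.4 ± 0.566 TPM, and the leading gene held 15.4% of the sum. The leading group was Sema4b (8.59 and 7.90 TPM), a transmembrane class 4 semaphorin on chromosome 7, 80186841 to 80226527. It was not separated from Sema3b, a secreted form, at 6.79 and 6.88 TPM. Sema6d, a transmembrane ligand known from heart tube and trabecular development (chromosome 2, 124089969 to 124667770), was at 6.61 and 7.01 TPM. Sema4d, the ligand of Plxnb1, came next at 6.86 and 5.91 TPM. These 4 genes formed a chain in which no neighbours were separated in both pups.

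A second tier held Sema4c, Sema6a and Sema3c, again with no neighbours separated. Sema4c, a plexin-B2 ligand, was at 4.31 and 4.66 TPM. It shared 7.27% of its exon bases with an opposite-strand gene. Sema6a, which binds plexin-A2 and plexin-A4, was at 3.77 and 4.36 TPM. Sema3c, the secreted semaphorin needed to divide the outflow tract (chromosome 5, 17574281 to 17730268), was at 3.65 and 3.36 TPM. Sema6d was 1.68 times Sema6a and 6.28 times Sema6c. Over coding transcripts these ratios were 3.0 and 9.43, and in expected counts that to Sema6c was 15.5.

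Other class 3 genes followed at lower levels. Sema3d, known from cardiac neural crest and venous patterning, was at 2.64 and 2.90 TPM, and Sema3c exceeded it 1.27-fold. That order turned over in counts and over coding transcripts, where the log2 ratios were -0.18 and -0.091. Sema3a, which limits sympathetic nerve growth into the heart (chromosome 5, 13125414 to 13602565), was at 2.28 and 1.99 TPM, and Sema3c exceeded it 1.64-fold over all transcripts. Over coding transcripts that log2 ratio fell from 0.52 to 0.17 and was no longer called. Sema3f was at 2.03 and 1.93 TPM, 0.290 times Sema3b, which lies 72.27 kb away on the same strand. Sema5a, a transmembrane form with thrombospondin repeats, was at 1.97 and 1.82 TPM.

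Sema6c (0.92 and 1.25 TPM) and Sema4a (0.71 and 0.76 TPM) were among the 3 most abundant members that missed the threshold in deposited TPM. For Sema4a these values lay below its own credibility intervals, 1.04 to 1.96 and 1.11 to 2.13 TPM. The posterior means were above 1 TPM for both genes, 1.41 and 1.68 TPM for Sema6c and 1.47 and 1.58 TPM for Sema4a. Sema7a, a lipid-anchored semaphorin, was at 0.75 and 0.46 TPM, 0.319 times Sema5a (0.0962 times in expected counts). Sema3e, a direct ligand of plexin-D1, was at 0.07 and 0.12 TPM from 15 and 31 counts, although its receptor was among the most abundant members. Sema3g, Sema6b and Sema5b lay between 0.38 and 0.68 TPM and Sema4g at 0.08 and 0.07 TPM. The lowest semaphorin was Sema4f with 2 and 5 counts.

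Plexins, the main semaphorin receptors, summed to 60.7 ± 2.42 TPM with 7 of 9 detected. Plxnb2 (chromosome 15, 89155549 to 89180788) led at 35.2 and 34.7 TPM, 14.7 times Plxnb1 over all transcripts, 6.96 times over coding transcripts and 6.27 times in expected counts. Only 43.5% of that was its full-length coding transcript Plxnb2-202, at 16.1 and 14.3 TPM. Plxnd1, the endothelial plexin needed for outflow tract and vessel patterning (chromosome 6, 115954811 to 115995005), was at 12.7 and 10.6 TPM. Its only transcript above 0 was the coding one, and it exceeded Plxnc1 10.4-fold. The A-class plexins, which signal with neuropilins, were lower. Plxna1 was at 4.42 and 3.96 TPM, with 10.7% of its exon bases shared with an opposite-strand gene. Plxna2, known from the outflow tract, was at 3.02 and 2.65 TPM. Plxna4 was at 2.76 and 2.40 TPM, and these last 2 were not separated in either direction. Plxnb1 was at 2.25 and 2.5 TPM and Plxnc1, the receptor of Sema7a, at 1.05 and 1.18 TPM. Plxna3 and Plxnb3, both X-linked, stayed between 0.44 and 0.61 TPM.

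The summed semaphorin level lay slightly below the plexin level, by -0.18 ± 0.04 on the log2 scale. The sign was not the same under every setting. The ratio was 0.18 over coding transcripts and 0.81 with both Sema4b and Plxnb2 left out, but -0.46 in expected counts. Neuropilins, the co-receptors of class 3 semaphorins, were unequal, with Nrp1 at 44.0 and 45.9 TPM and Nrp2 at 3.98 and 4.09 TPM. Nrp1 was 11.1 times Nrp2 and exceeded every plexin in both pups.

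**Figure D2:**
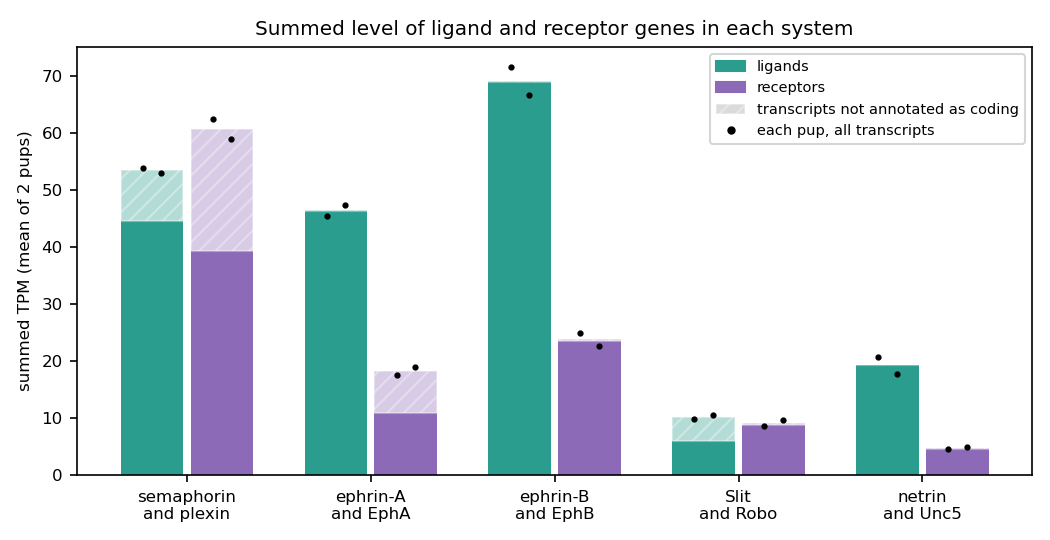
Summed TPM of ligand genes (green) and receptor genes (purple) in each system, as the mean of 2 pups, with hatched parts for transcripts not annotated as coding and a dot for each pup. Ligands exceed receptors for ephrin-A, ephrin-B and netrin, where Unc5 genes are the only netrin receptors counted. The hatched part is 21.3 TPM for plexins, 8.86 for semaphorins, 7.38 for EphA receptors and 4.14 for Slits, and under 1 TPM for each other family.

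Slits, secreted ligands of Robo receptors, summed to 10.2 ± 0.537 TPM. Slit3 (chromosome 11, 35121224 to 35708507), known from heart and diaphragm development, was at 5.13 and 6.65 TPM. Slit2, the best studied family member, was at 4.63 and 3.82 TPM. The replicate 1 values lay close together and the replicate 2 values apart, and the pair was not called. The deposited Slit2 values lay below their own credibility intervals in both pups. Posterior means were 5.78 and 4.82 TPM for Slit2 and 5.32 and 6.78 TPM for Slit3, so that order differed between the pups. Slit1, a mainly neural Slit, had 2 and 5 counts against 833 and 644 for Slit2. Among the receptors, Robo4 (chromosome 9, 37401897 to 37415115) was at 5.97 and 6.55 TPM and made up 68.6% of the Robo sum of 9.125 ± 0.714 TPM. It was 3.63 times Robo1, the broadly used Slit receptor, at 1.71 and 1.74 TPM, and 1.77 times in expected counts. Robo2 was above 1 TPM in replicate 2 alone (0.85 and 1.2 TPM) and was not separated from Robo1. Robo3 lies 553 bases beyond the end of Robo4 on the other strand and was at 0.09 and 0.14 TPM from 4 and 5 counts. The Slit sum exceeded the Robo sum by 0.16 ± 0.04 on the log2 scale, with Robo4 counted as a Slit receptor by name alone. The sign turned over for coding transcripts alone, at -0.55. Without Slit3 and Robo4 the log2 ratio was 0.57 ± 0.34.

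The netrin sum was 19.2 ± 2.12 TPM, and Ntn1 made up 90.6% of it. Ntn1, a laminin-related secreted cue (chromosome 11, 68209364 to 68400823), was at 18.8 and 16.1 TPM. It was 9.92 times Ntn4, a basement membrane netrin at 1.91 and 1.60 TPM. Ntn5 had 2.25 and 5.13 estimated counts and was the 1 member whose count had a deposited posterior SD above 10% of the posterior mean. On the other strand, a gene overlaps 23.4% of its exon bases.

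Of the Unc5 receptors only Unc5b, the endothelial form (chromosome 10, 60762593 to 60831581), was detected, at 3.75 and 3.79 TPM. Unc5a was at 0.53 and 0.65 TPM, Unc5c at 0.21 and 0.43 TPM, and Unc5b was 6.39 times Unc5a (9.92 times in expected counts). Its ratio to Unc5c was 17.9 in replicate 1 and 8.81 in replicate 2. In replicate 1 the deposited values of Unc5a and Unc5c lay below their own credibility intervals. Posterior means were higher, 0.85 and 0.97 TPM for Unc5a and 0.45 and 0.72 TPM for Unc5c, against 3.70 and 3.74 TPM for Unc5b. Unc5d was at 0.07 and 0.05 TPM. Netrins exceeded Unc5 receptors by 2.02 ± 0.24 on the log2 scale (4.05-fold), and Ntn1 alone was 4.62 times Unc5b. The Unc5 sum leaves out the other netrin receptors, which were split. Mcam, listed with netrin receptors and related genes, was at 40.85 and 35.0 TPM, above Ntn1 in both pups. Neo1, which also binds repulsive guidance molecules, was at 9.58 and 8.88 TPM. Dcc, the classical attractive receptor of axons, was at 0.07 and 0.04 TPM, and the ratio of Neo1 to Dcc was 168, or 255 in expected counts.

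Of 30 pairs of related or interacting genes compared within each pup, 27 were called, 19 with the first gene higher and 8 with the second. To be called, the log2 ratio of TPM + 1 had to agree in sign between the pups, its mean had to exceed its change from pup to pup, and the credibility intervals had to be apart in each pup. The 3 pairs not called were Plxna2 and Plxna4, Slit3 and Slit2, and Robo1 and Robo2. Within families, 25 of 55 neighbours in the order of levels were not separated.

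Part of several genes' TPM lay in transcripts that are not annotated as coding. In 24 of the 39 detected members, coding transcripts held 95% or more of the TPM, and in 5 they held under 60%. The same shares over all detected genes were not counted, so whether the members are unusual in this was not tested. Plxnb2 was the most abundant of the 5. Its transcript Plxnb2-205, a processed transcript of 841 bases, was given 19.1 and 18.5 TPM from 539 and 518 counts, whereas the coding Plxnb2-202 of 6377 bases took 3856 and 3394 counts. In Slit2 the coding transcript Slit2-202 held 41.2% and the retained intron Slit2-207 40.2% of the gene's TPM. In Sema6a the coding share was 50.5%, with retained introns as the second and the third transcripts. Epha7 had a coding share of 51.9%, and its coding Epha7-201 (2.68 and 3.0 TPM) and processed Epha7-208 (2.79 and 2.86 TPM) were nearly equal.

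Epha4 had a total of 6.43 and 6.42 TPM, from 1085 and 1199 counts, and its reads were assigned to different transcripts in each pup. In replicate 1, 910.6 counts went to Epha4-205, annotated for nonsense-mediated decay and 6315 bases long, and 1.46 counts to the coding Epha4-201 of 6328 bases. In replicate 2 the counts were 0 and 1105. The credibility intervals of both transcripts overlapped between the pups: 6.21e-05 to 3.02 and 2.80 to 4.77 TPM for Epha4-201, and 0.415 to 3.86 and 1.06e-05 to 1.67 TPM for Epha4-205. Of 15 members of 5 TPM or more with several transcripts, 13 had 1 main transcript in both pups (86.7%), against 94.4% of all 6574 such genes. The exceptions were Epha4 and Epha7.

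**Figure D3:**
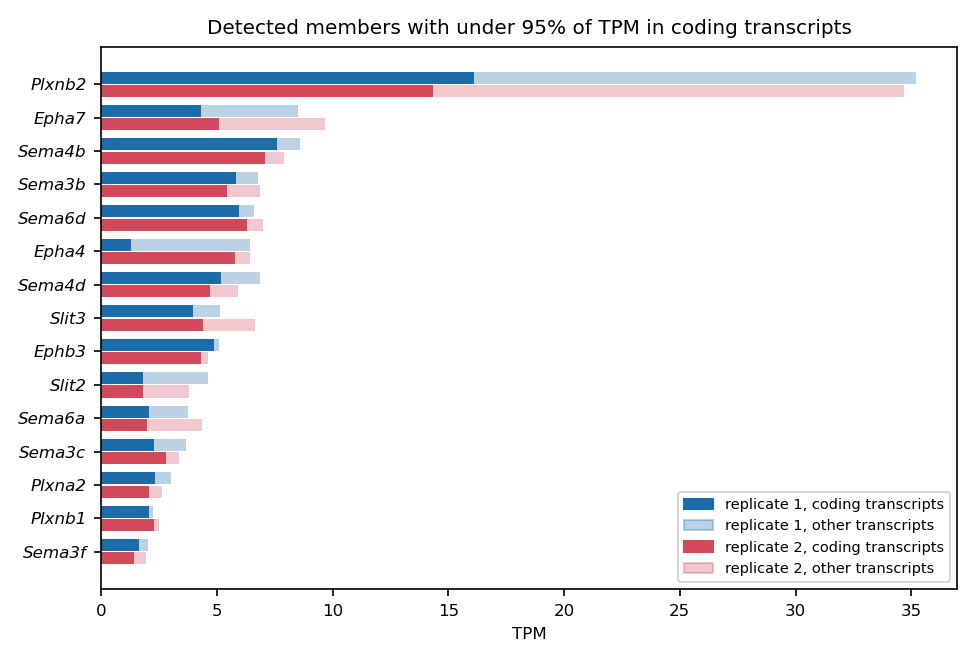
TPM of the 15 detected members with under 95% in coding transcripts, 1 bar per pup (blue for replicate 1, red for replicate 2), with the dark part coding and the pale part other transcripts. Plxnb2 has the longest pale part in both pups, and Epha4 has a short dark part in replicate 1 and a long one in replicate 2.

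The littermates had similar levels of these genes. Of 51 members with a mean count of 50 or more, none differed by 1 or more on the log2 scale in edgeR TMM-scaled counts, where 0.498% of 13463 genes did. A ratio within 1.2-fold was found for 42 of the 51 (82.4%), close to the 84.8% of all genes. The log2 ratios of replicate 2 to replicate 1 ran from -0.67 for Sema7a (92 and 56 counts) to 0.68 for Unc5c (47 and 75 counts), with a median of 0.03. The median size of the ratio was 0.142, against 0.104 for all genes. Genes with few counts lay at both ends. Of the 51, 29 (56.9%) were higher in replicate 2. That share was not counted over all genes, whose median log2 ratio was -0.001. By the ratio of deposited TPM, 1 member passed the threshold, Unc5c. Its replicate 1 value, 0.21 TPM, lay below its own credibility interval.

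**Figure D4:**
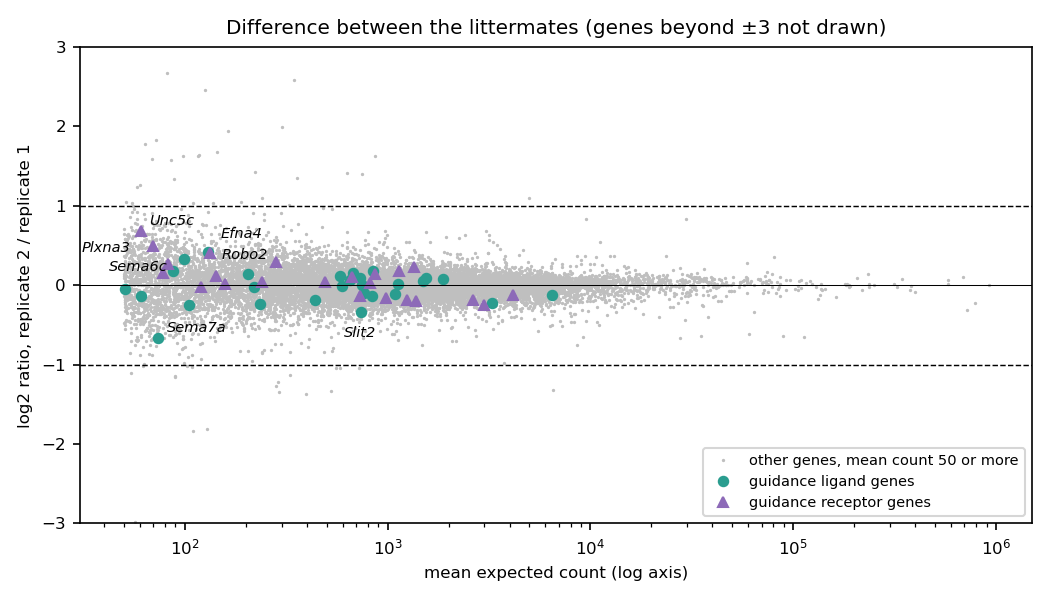
Log2 ratio of replicate 2 to replicate 1 in TMM-scaled counts against the mean expected count on a log axis, for guidance ligands (green circles), guidance receptors (purple triangles) and other genes of 50 counts or more (grey). Other genes with ratios beyond the range of the axis are not drawn. Dashed lines mark -1 and 1, and every guidance gene lies between them, with Unc5c and Sema7a farthest from 0.

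Of 78 symbols of co-receptors and effectors listed by known function, 77 were matched, all but Cd146. Cd146 is another name of Mcam, which was itself listed and matched. Of the 77 genes, 59 were detected (76.6%, with 54.5% over all coding genes). The lists were chosen with earlier results of these data known, so this share is no independent result. None of the 77 genes with 50 counts or more differed between the pups by 1 on the log2 scale. The list for semaphorins had 21 of 26 detected, that for Eph receptors 17 of 21, that for Slit and Robo 13 of 16 and that for netrins 8 of 14, or 57.1%. The 10 most abundant included GTPases, an integrin and adaptor proteins. Rhoa, a GTPase that contracts the cell edge, was at 252 and 246 TPM. Itgb1, the beta 1 integrin, was at 241 and 219 TPM. Rac1, the GTPase of protrusions, was at 133 and 139 TPM. Sdcbp, the PDZ protein syntenin that binds ephrin-B tails, was at 166.0 and 171 TPM. Dpysl3 (98.9 and 97.2 TPM) and Dpysl2 (62.9 and 64.3 TPM) encode collapsin response mediators, which relay semaphorin signals. These levels were all above that of the most abundant guidance gene. The remaining 4 of the 10 were Gipc1, an adaptor of plexins and neuropilins, at 75.7 and 76.0 TPM, Rras, a GTPase inactivated by plexins, at 66.4 and 69.4 TPM, Pdzd11 at 57.7 and 66.9 TPM and Ablim1, an actin-binding LIM protein, at 80.4 and 62.2 TPM.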

How the data were processed

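Gene and transcript tables of each library were used as deposited. The deposited read-me names the build mm10 and the annotation GENCODE M4. The aligner, tool versions and strand setting were not given in the sources used here. Per the file headers, expected counts are estimated reads, TPM and FPKM are scaled by effective length, the percent column is a transcript's share of its gene, and credibility bounds and posterior means of TPM form a signal of no stated interval width. Symbols, biotypes and coordinates came from GENCODE M21 of the same build and promoters from RefSeq.

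Members and lists were chosen with earlier results of these data known. Named genes were, by rule, detected members, the 3 most abundant others, both members of each pair, the 10 most abundant partners, and Nrp1, Nrp2, Dcc and Neo1. Other members, and Mcam, were named after their values were seen. Counts were rounded and scaled by TMM in edgeR 4.0.16 (R 4.3.3, prior count 2), checked on simulated data. The biological coefficient of variation was 0.0892 over 15980 genes. Nothing says that the hearts were prepared separately, so spreads may be partly technical. Floors of 3 counts cover counting error only. Alternatives were DESeq2 1.42.0 size factors, other thresholds, FPKM, coding transcripts, counts and posterior means.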

Additional observations from a re-analysis of the deposited data

How the results depend on the processing

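The count of detected members, 39, was 59 when more than 3 counts sufficed and 29 to 47 under the other thresholds and units, and 41 or 39 with 1 pup left out. The count of members differing between the pups stayed at 0 except with TPM ratios (1). The log2 ligand to receptor ratios moved most. For semaphorins to plexins the ratio was 0.18 over coding transcripts, -0.46 in expected counts, -0.050 in posterior mean TPM and 0.81 without the leading ligand and receptor. For ephrin-A to EphA these values were 2.13, 0.33, 1.28 and 0.95. For ephrin-B to EphB they were 1.19 in expected counts, 1.5 in posterior means and 0.95 without the leading genes. For Slit to Robo they were -0.55, 0.086, 0.30 and 0.57, and for netrin to Unc5 the ratio was 0.92 without the leading genes. Leaving out a pup changed no sign of these ratios. The count of pairs called was 22 to 28. Sema3c to Sema3d turned to -0.091 over coding transcripts and -0.18 in expected counts, and Efna1 to Efna5 to -0.32 in expected counts. Over coding transcripts, 4 further pairs were no longer called: Sema3c to Sema3a, Sema4c to Sema4d, Epha2 to Epha4 and Epha4 to Epha7. Slit3 to Slit2 was called in replicate 2 alone. At 1 TPM or more, 28 of 32 members kept their main transcript, and the share over all such genes was not counted. The cause was not tested for these changes, beyond the effect of gene length on expected counts.

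In 11 members with reads, a deposited TPM lay outside its own credibility interval, among them Slit2, Sema3b, Sema3f, Sema4a, Unc5a and Unc5c. The share over all genes was not counted, and detection was not recounted in posterior means. Low counts limit the 9 members below 0.1 TPM. No paired analysis was possible because there was 1 group.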

Other observations

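The antisense genes at Plxna4 were low. Plxna4os1 had 16 and 19 counts (0.22 and 0.27 TPM), Plxna4os2 had 14 and 12 counts (0.19 and 0.16 TPM), and Plxna4os3, which overlaps 0.780% of the Plxna4 exon bases, had 0 in both pups.

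Some members are neighbours on a chromosome. Sema3d (2.77 TPM on average), Sema3a (2.135 TPM) and Sema3e (0.095 TPM) follow each other on the same strand of chromosome 5, with gaps of 536 and 423 kb. Ephb2 (0.155 TPM) and Epha8 (0.01 TPM) are 93.43 kb apart on chromosome 4, and both were near 0.

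The lung epithelial markers that differed between the pups were not the same genes in each. Sftpc was at 25.5 TPM (replicate 1) and 0.34 TPM (replicate 2), whereas Scgb3a2 was at 2.96 and 563 TPM and Scgb1a1 at 0.97 and 74.3 TPM.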
